A study of Mus musculus with 12 samples.

Results

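Cytosolic ribosomal protein genes encode the proteins of the small (Rps) and large (Rpl, Rplp) subunits of the ribosome, the particle that reads mRNA into protein. They were taken by symbol: Rps, Rpl or Rplp followed by a number and at most the letter a, x or l. The rule found 78 genes among the 23983 entries of each table, 30 of the small and 48 of the large subunit. The authors tested 75 of them in both tissues (30 small, 45 large). Rps4l, counted here as small, is annotated as a transcribed processed pseudogene.

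The study sequenced RNA from the brains of mice at postnatal day 0, in 12 libraries of 4 groups with 3 replicates each. Each tissue, cortex or subcortex, was taken from wild-type mice (WT) and from mice lacking Reck in vessels (vKO), and the strain of all is given as mixed. The vKO genotype is labelled Reck flex2/Δex1; Tie2Cre, and Tie2Cre is a Cre driver active in endothelial and blood lineages, which are a part of the cells of either tissue. The labels do not say whether replicates are separate animals, so the authors' p-values may measure technical spread only.

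Each table gives 1 FPKM per group, which is the authors' group value of fragments scaled to transcript length and to all mapped fragments. No replicate value was used, so no SD, interval or tissue-by-genotype term could be computed, and library depth is unknown. The words rose and fell are kept for genes whose q-value from the authors was under 0.05. Ratios are log2((vKO + 1)/(WT + 1)), with a pseudocount of 1 FPKM that understates the change of low genes. In bulk tissue, a change in the number of cells of a type and a change in RNA per cell cannot be told apart.

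The tissues differed in a regional marker: Tcf7l2, a thalamic factor, was at 4.71 FPKM in WT cortex and 37.0 in WT subcortex. It also differed between the cortex groups, where it fell to 1.07 in vKO, and stood at 33.2 in vKO subcortex. Reck was at 2.91 (WT) and 3.23 (vKO) in cortex and at 2.37 and 3.49 in subcortex, with no call in either tissue in the authors' deposited table. Xist, expressed from the inactive X chromosome of females, was at 0.0417 and 18.6 FPKM in WT and vKO cortex and at 0.0369 and 10.2 in subcortex. The Y-linked Eif2s3y was at 30.4 and 15.8 in cortex and at 27.6 and 13.3 in subcortex. The groups thus differ in these sex-linked transcripts, and sex and genotype cannot be told apart in these values.

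A ribosome needs its proteins in nearly equal numbers, and their genes are among the most strongly transcribed of any cell. Most of their mRNAs are short and start with a run of pyrimidines (C and U), the terminal oligopyrimidine or TOP motif, through which the mTOR kinase and the protein LARP1 set their translation and stability. Mammalian genomes also hold many processed copies of these genes, made by reverse transcription of their mRNAs.

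The following start-site sequences show the longest run of pyrimidines near the annotated start in members that the results turn on. They are 30-base windows on the coding strand from RefSeq (GRCm38.p6, the mm10 assembly). Capitals mark the longest uninterrupted run of C and T found between 10 bases before and 50 bases after the annotated start. A run that crosses these limits is cut there, as in Rps16 and Rps27l. The marked run need not begin at the annotated start: it begins at position 14 from it in Rpl11, 22 in Rpl26 and 28 in Rpl36a. Rpl27a, Rpl11, Rps16 and Rps27l had 4 of the largest rises in cortex, Rpl38 and Rplp2 were among the most abundant members, Rpl36a is X-linked, Rpl35 has a long run, Rps6 one of median length, and Rpl26 had the only ratio below 0 among tested members in cortex.
Rpl27a (chr7:109519186-109519215, plus strand): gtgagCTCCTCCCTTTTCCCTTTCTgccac
Rpl11 (chr4:136053358-136053387, minus strand): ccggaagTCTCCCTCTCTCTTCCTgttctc
Rpl35 (chr2:39005115-39005144, minus strand): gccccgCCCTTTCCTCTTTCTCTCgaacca
Rps6 (chr4:86857349-86857378, minus strand): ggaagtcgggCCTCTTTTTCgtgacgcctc
Rpl38 (chr11:114668568-114668597, plus strand): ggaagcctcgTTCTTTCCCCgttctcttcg
Rplp2 (chr7:141447636-141447665, plus strand): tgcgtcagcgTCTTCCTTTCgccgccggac
Rpl36a (chrX:134585672-134585701, plus strand): cggctctagCCTCTCTCTTTCCgagctgct
Rpl26 (chr11:68901579-68901608, plus strand): gcgtgtagTTCTCTTTCCTTTTgcggccat
Rps16 (chr7:28350674-28350703, plus strand): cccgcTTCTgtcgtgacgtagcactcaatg
Rps27l (chr9:66946071-66946100, plus strand): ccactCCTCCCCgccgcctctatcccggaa

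RefSeq promoters were matched for 57 of the 78 members. A run of at least 8 pyrimidines was found in 39 of them (68.4%), against 21.3% of all 27025 promoter symbols in the same window. The share was 16.9% in other tested genes with short transcripts (70 of 413) and 16.2% in mitochondrial ribosomal protein genes (11 of 68). The longest run in a member was the 20 pyrimidines of Rpl27a, and the median member had 10, against 5 over all symbols. Within this window Rps16 had a run of 4 and Rps27l one of 7, short of the 8. Both are cut at the window's upstream limit, beyond which the printed bases continue with C or T. Uncut, the run of Rps27l would reach the 8, but the gene is counted as without one. A match only says that these letters stand near the annotated start.

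Ribosomal protein genes made up a large part of the RNA signal in all groups. Their summed FPKM was 29044 in WT cortex, 43854 in vKO cortex, 37387 in WT subcortex and 37941 in vKO subcortex. These sums were 6.71%, 8.69%, 7.53% and 8.20% of the summed FPKM of all entries. Among the 100 protein-coding entries of highest FPKM, 42, 44, 39 and 41 were members in the same order of groups. The tables were normalized separately, so levels set across tissues carry that limit.

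The 75 tested genes spanned a wide range within a group, although their products meet in equal numbers in the ribosome. In WT cortex they ran from 4.87 FPKM (Rpl26) to 1445 (Rpl38), with a median of 346. The medians were 548 in vKO cortex, 469 in WT subcortex and 472 in vKO subcortex. The order of the genes was nearly the same in all groups: Spearman's rho across the 75 genes was 0.981 between WT cortex and WT subcortex and 0.988 between WT and vKO cortex. These points share libraries, gene lengths and copies, and the coefficients are descriptions.

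**Figure D1:**
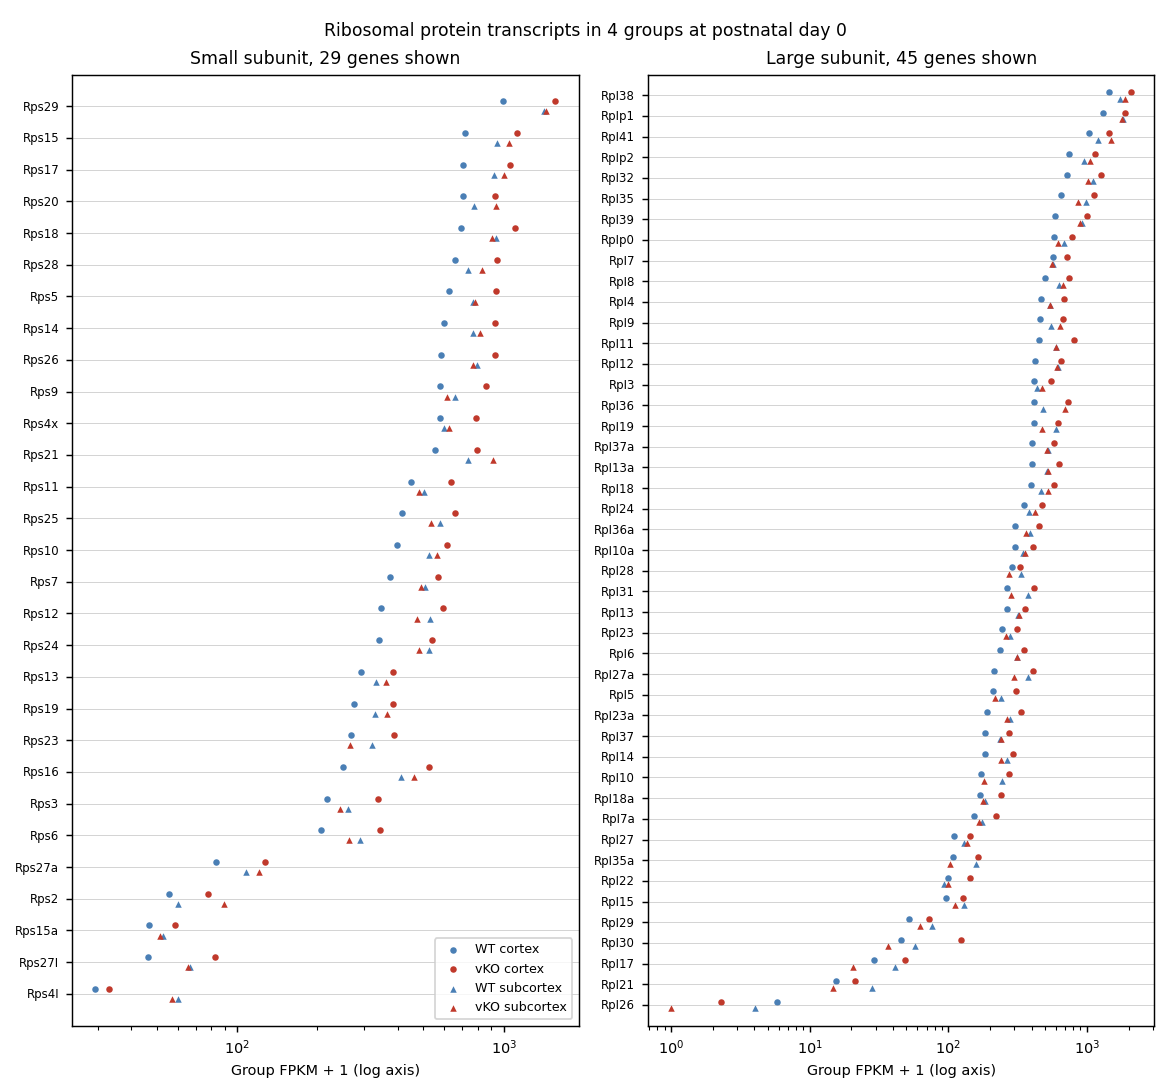
FPKM + 1 (log axis) of the tested ribosomal protein genes shown, ordered by WT cortex, small subunit at left and large at right; circles are cortex, triangles subcortex, blue WT and red vKO, each the authors' group value. The red circle lies right of the blue one in all genes shown but Rpl26, while the triangles of a gene mostly lie close together.

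The most abundant members in WT cortex were small basic proteins and the acidic stalk proteins. Rpl38, a small protein of the large subunit, had 1445 (WT) and 2095 (vKO) FPKM in cortex, and 1720.2 and 1887 in subcortex. Rplp1, an acidic protein of the stalk that recruits the elongation factors, was at 1297 and 1889.6 in cortex and at 1809 and 1779 in subcortex. Rpl41, among the shortest proteins known, was at 1040.3 and 1437 in cortex and at 1208 and 1489 in subcortex. All 3 were higher in vKO than in WT cortex, whereas in subcortex Rplp1 was nearly level. Rps29, a small zinc-binding protein of the head of the small subunit, was at 996 and 1565 in cortex and at 1419 and 1439.7 in subcortex. Rplp2, the partner of Rplp1, was at 741 and 1140.0 in cortex and at 960.3 and 1051 in subcortex. All 5 rose in vKO cortex and none was called in subcortex.

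At the other end stood 3 untested paralogues that textbooks place in other tissues. Rpl3l, the striated muscle form of Rpl3, was at 0.0616 and 0.1002 FPKM in WT and vKO cortex. Rpl10l, a testis form of the X-linked Rpl10, was listed at 0 in all 4 groups. Rpl39l, the testis-enriched form of Rpl39, was at 0.0436 in WT cortex and listed at 0 in vKO cortex. Their main forms were far higher: Rpl3 was at 415 and 548, Rpl10 at 172 and 274, and Rpl39 at 590.3 and 1006 in WT and vKO cortex. Rps27l, a p53-responsive paralogue of Rps27, was at 45.5 in WT and 81.7 in vKO cortex.

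Low values also went with copies in the genome. A search of annotated transcripts for near-identical copies (at least 95% identity over at least 80% of the coding sequence) found 541 copies of 77 members, more than 5 copies for 34 of them and none for 8. Of the 12 tested members under 100 FPKM in WT cortex, 8 had more than 5 copies, against 26 of the 63 at or above it. Spearman's rho between the WT cortex level and the number of copies was -0.357 over 74 genes, a description only. Rpl21, with 57 copies, was at 14.5 FPKM, and Rpl17, with 22, was at 28.1. How the authors' counting shared reads between a gene and its copies is not stated, so the levels of such genes are uncertain.

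**Figure D2:**
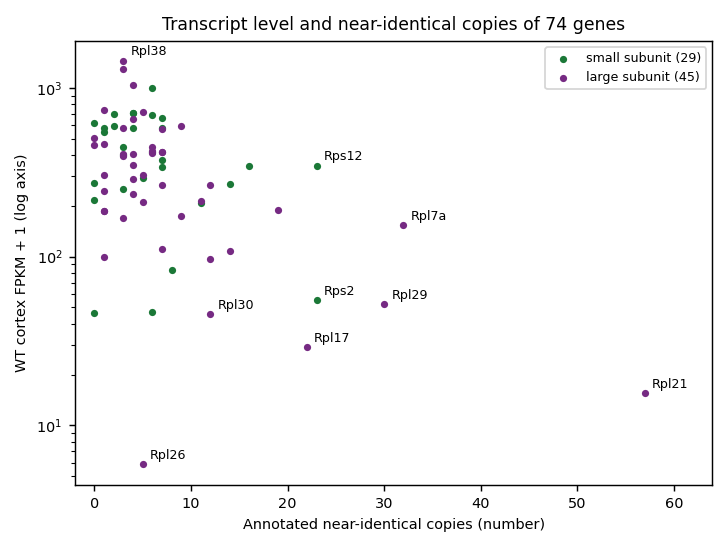
FPKM + 1 in WT cortex (log axis) of 74 tested members against the number of annotated near-identical copies of each gene; each point is 1 gene, coloured by subunit. Rpl21, with 57 copies, lies at 14.5 FPKM, and Rpl38, with 3 copies, at 1445.

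The same limit applies to Rps27 and Rpl34, which the tables hold only jointly with a copy and which the symbol rule does not take. The joint entry of Rps27 and its retrotransposed copy Rps27rt was at 4.65 and 5.87 FPKM in WT and vKO cortex, while the entry of Rps27rt alone was at 779 and 1222. The joint entry of Rpl34 and Rpl34-ps1 was at 9.24 and 14.2, and that of Rpl34-ps1 alone at 404 and 785. The authors marked both single entries as lacking data for a test. Rpl14-ps1, a copy of Rpl14 with its own entry, rose from 116 to 197 FPKM in cortex (q-value 0.000806, the authors' deposited table).

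In cortex, ribosomal protein genes were higher in vKO than in WT almost without exception. Of the 75 tested, 64 rose, none fell and 11 were not called, against a background of 8.15% of all 13594 tested entries called higher, 11.3% called lower and 19.5% called in either direction. The ratio was above 0 for 74 of the 75, and for 72 when each group was rescaled to the same summed FPKM. Their median ratio was 0.57 (quartiles 0.48 and 0.66), a median fold of 1.49, whereas the median over all tested entries was 0.00. The summed FPKM gave a ratio of 0.59, or 0.37 after the same rescaling, which shifts every ratio in cortex by -0.22. After it, the median was 0.35 for the members and -0.22 over all tested entries. The authors' deposited table lists p-values under 0.05 for 71 of the 75, and 25 of the called genes stood at the smallest p listed, 5e-05. At a q-value under 0.01, 52 rose (4.01% of all tested entries were called higher and 7.28% lower), and with a 1.5-fold minimum as well 32 rose (4.35% and 6.83%).

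The largest rises were found in both subunits. Rps16, a protein of the head of the small subunit near the decoding centre, had the largest called ratio, 1.07, from 249 FPKM in WT to 524 in vKO cortex. Rpl27a, a protein of the large subunit, rose from 214 to 407 (0.92). Rpl11, which binds the smallest ribosomal RNA of the large subunit and, when free, the p53 regulator Mdm2, rose from 448 to 813 (0.86). In each the vKO value was above 1.5 times the WT value. Rps27l (0.83) rose from 45.5 to 81.7, and Rpl32 (0.83), a member of the large subunit, rose from 716 to 1270.3. Rpl36 (0.82), also of the large subunit, rose from 414 to 734, and Rpl23a (0.82), at the exit of the nascent chain, from 189 to 334. The authors' deposited table lists a q of 0.000806 for all 7.

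By place in the ribosome, the genes of the acidic stalk and its base (Rplp0, Rplp1, Rplp2 and Rpl12) had a median ratio of 0.58 in cortex, and 3 of 4 rose. Rplp0, the stalk's anchor, was at 577 and 781, and the authors' deposited table lists a q of 0.0516. Rpl5 and Rpl11, the partners on the smallest ribosomal RNA, both rose, Rpl5 from 209.9 to 306. Of 8 genes at the tunnel through which the new protein leaves and at its rim (Rpl4, Rpl17, Rpl19, Rpl23a, Rpl26, Rpl31, Rpl35 and Rpl39) 7 rose, with a median of 0.69. Of 13 genes of the head of the small subunit 12 rose, with a median of 0.63. In subcortex the medians were -0.02 for the stalk, -0.07 for Rpl5 and Rpl11, -0.26 for the tunnel, where 7 of 8 ratios were below 0 and Rpl17 fell, and 0.10 for the head. These places were assigned after values were known and serve as description.

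The 11 genes without a call were mostly higher in vKO as well, with ratios above 0 in 10 of them. Rpl28, Rpl7, Rpl23, Rpl27, Rpl3, Rplp0, Rps15a and Rps4l had ratios from 0.17 (Rps4l) to 0.44 (Rplp0). Rps15, of the head of the small subunit, was at 712 and 1119 (0.65). The authors' deposited table lists a q of 0.566 for it, and its deposited locus spans 672 kb, far beyond 1 gene. The deposited loci of Rpl38 (413 kb), Rps4l (397 kb), Rpl31 (111 kb) and Rpl5 (86.5 kb) are also wide, so values of these entries may include other transcripts, which was not tested. Rpl30 was at 44.6 and 123, a ratio of 1.44 (q of 0.0775, the authors' deposited table), and it has 12 near-identical copies. Rpl26, at 4.87 and 1.28 FPKM, was the only tested member with a ratio below 0 (-1.36), for which the authors' deposited table lists a q of 0.738.

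In subcortex, the same genes stood close to their WT values. None of the 75 rose and 2 fell, against a background of 0.451% of 13735 tested entries called higher, 0.262% called lower and 0.714% in either direction. The median ratio was -0.02, with 32 ratios above 0 and 58 within 0.25 of 0. With each group rescaled to the same summed FPKM, a shift of 0.10, the median was 0.08 and 51 ratios were above 0. The median over all tested entries was then 0.10. The authors' deposited table lists p-values under 0.05 for 9 of the 75, 2 of them higher and 7 lower.

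Both genes that fell in subcortex have many copies. Rpl17 fell from 40.1 FPKM in WT to 19.5 in vKO subcortex, a ratio of -1.002, while in cortex it rose from 28.1 to 48.0 (0.75). Rpl21 (chr5:146832890-146837032) fell from 27.2 to 13.8 in subcortex, a ratio of -0.93, and rose from 14.5 to 20.1 in cortex (0.44). The authors' deposited table lists a q of 0.0104 for both subcortical falls. The largest ratios upward, which were not called, were those of Rps2, at 59.2 and 88.3 (0.57), and Rpl36, at 483 and 695 (0.52). Chosen after their values were seen, 4 other members stood lower in vKO subcortex without a call: Rpl30 at 56.8 and 36.0, Rpl35a at 159 and 102, Rpl10 at 243 and 181, and Rpl31 at 377 and 281. All 4, like Rpl17, Rpl21, Rps2 and Rpl36, have more than 5 copies. Rpl26 was at 3.05 in WT and listed at 0 in vKO subcortex.

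Set side by side, 74 of the 75 cortex ratios were above the subcortex ratio of the same gene, Rps2 being the exception (0.49 and 0.57). The difference between tissues was not tested, since no replicate value was used. Rps16 was at 410.3 and 460.4 FPKM in WT and vKO subcortex and Rpl11 at 596 and 599. Rpl27a, up in cortex, was at 378 and 296 in subcortex. In WT brains 73 of the 75 genes had a higher level in subcortex than in cortex, with a median ratio of levels of 1.29. In vKO brains 5 did, with a median of 0.860. The tables were normalized separately, and the share over all entries was not computed. The summed FPKM of all entries was 432837 in WT cortex and 496410 in WT subcortex, and 504669 and 462792 in vKO. The vKO cortex value was above the WT subcortex value in 69 of 75.

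**Figure D3:**
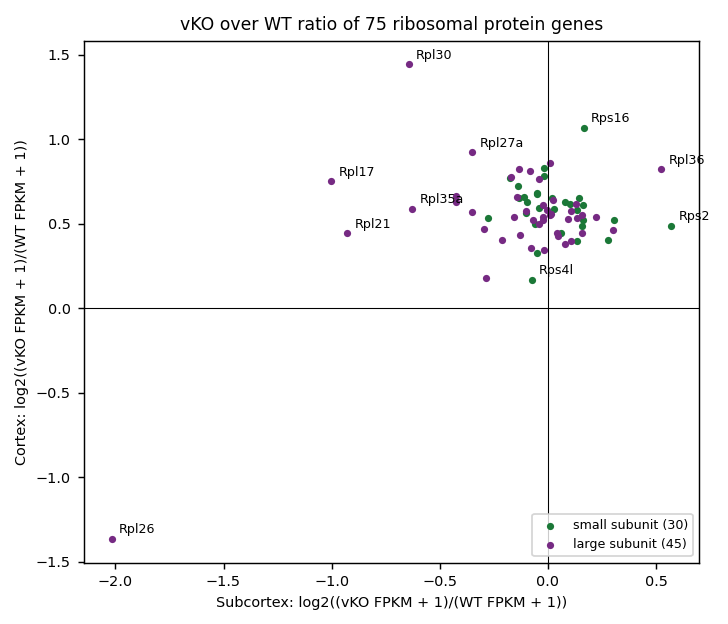
log2((vKO + 1)/(WT + 1)) of each of the 75 tested members in cortex (vertical) against subcortex (horizontal); each point is 1 gene, coloured by subunit, from the authors' group values. In cortex 74 points lie above 0, while 58 lie within 0.25 of 0 in subcortex, and Rpl26, at low FPKM, stands apart.

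Small and large subunit genes were then compared by their medians. In cortex the small subunit had a median ratio of 0.60 with 27 of 30 genes risen, and the large subunit 0.55 with 37 of 45, a difference of 0.05. In subcortex the medians were 0.00 and -0.04, with none and 2 called, a difference of 0.04. These differences were not tested. The SD of ratios across genes, which is no error of the medians, was 0.166 (small) and 0.353 (large) in cortex and 0.169 and 0.406 in subcortex, and the large subunit includes Rpl26 and Rpl30. The ratio of summed small to summed large subunit FPKM was 0.744, 0.754, 0.750 and 0.774 in WT cortex, vKO cortex, WT subcortex and vKO subcortex.

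Genes with many copies gave similar medians in cortex. Of 40 tested members with at most 5 copies 35 rose, with a median of 0.56, and of 34 with more than 5 copies 29 rose, with a median of 0.61. In subcortex the medians were 0.02 and -0.06, and both called genes had more than 5 copies. Members with a pyrimidine run of 8 or more within the start window had a median ratio of 0.59 in cortex (38 genes). Those without one, Rps27l with its cut run included, had 0.48 (16 genes). In subcortex the medians were -0.04 and 0.04. Other short genes had medians of 0.46 with a run and 0.41 without one in cortex.

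The tested members, of which 44 of 75 have a longest annotated transcript of at most 1000 bases, were set beside all other protein-coding genes no longer than that. Of 545 such tested genes 207 rose and 2 fell, with a median ratio of 0.43 and quartiles of 0.28 and 0.60. The median of 0.57 over members of any length was 0.14 above that of the short genes, and that of the 44 short members (0.59) was 0.16 above it. With both held to at most 600 bases the difference was 0.046. Within those quartiles lay 42 members, 30 lay above them and 3 below. With a WT level of at least 100 FPKM, 54 of 76 other short genes rose, with a median of 0.49. In subcortex 4 of 565 short genes rose and 3 fell, with a median of -0.02, equal to that of the members to 2 decimals.

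Among other genes in cortex, longer transcripts had lower ratios. The median ratio was 0.54 up to 600 bases (108 genes), 0.42 above that and up to 1000 (437), 0.24 up to 2000 (2233), 0.05 up to 4000 (4909) and -0.20 beyond (4530). The members had medians of 0.59 (16 genes), 0.59 (27), 0.57 (25) and 0.54 (5) in the first 4 of these classes, and 0.33 for the single longest. Spearman's rho between ratio and length was -0.603 over 12217 other genes in cortex and 0.011 over 12410 in subcortex, and -0.230 over the members in cortex. Taking off the running median of the other genes nearest in length left a median of 0.21, with 68 of 75 above 0. The longest transcript overstates some members, and with the shortest transcript that holds the full coding sequence the median left was also 0.21. What part length has in the rise of the members was not tested.

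**Figure D4:**
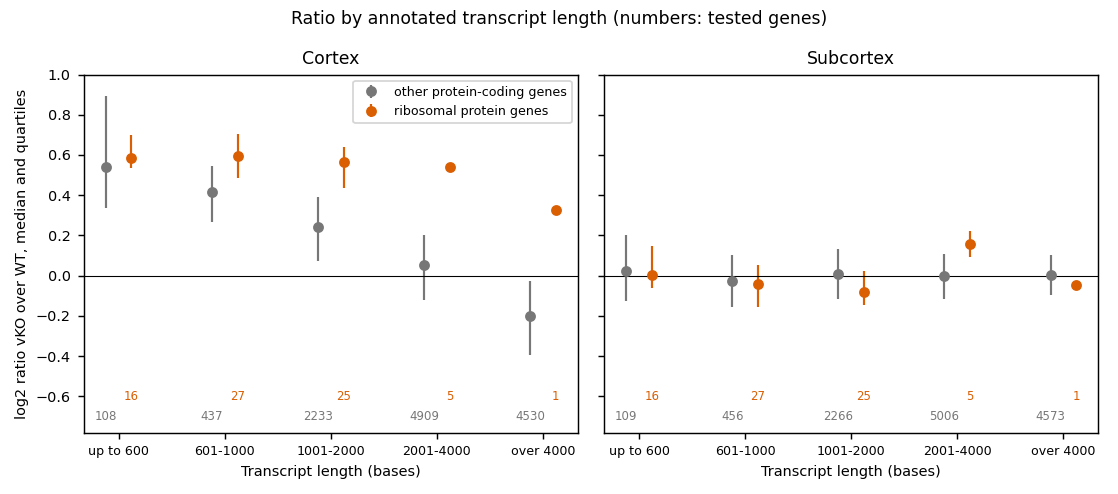
Median (point) and quartiles (line) of log2((vKO + 1)/(WT + 1)) by class of transcript length in bases, for ribosomal protein genes (orange) and other tested protein-coding genes (grey), in cortex and subcortex; the numbers are tested genes. In cortex the grey medians go from 0.54 in the shortest class to -0.20 in the longest, while the orange ones lie between 0.54 and 0.59 in the first 4 classes.

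Genes of other large complexes, with median transcript lengths of 1316 (mitochondrial ribosome), 875 (respiratory chain) and 1490.5 bases (proteasome), also rose in part. Among 77 mitochondrial ribosomal protein genes 22 rose and none fell in cortex, with a median of 0.36. Among 80 genes of the respiratory chain and ATP synthase 34 rose and none fell (0.39), and among 46 proteasome subunit genes 18 rose and 1 fell (0.34). With the running median by length taken off, the cortex medians of these 3 families were 0.11, 0.01 and 0.09, against 0.21 for the members. In subcortex 0, 0 and 0 of these rose and 1, 0 and 0 fell, with medians of -0.06, -0.02 and 0.00.

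**Figure D5:**
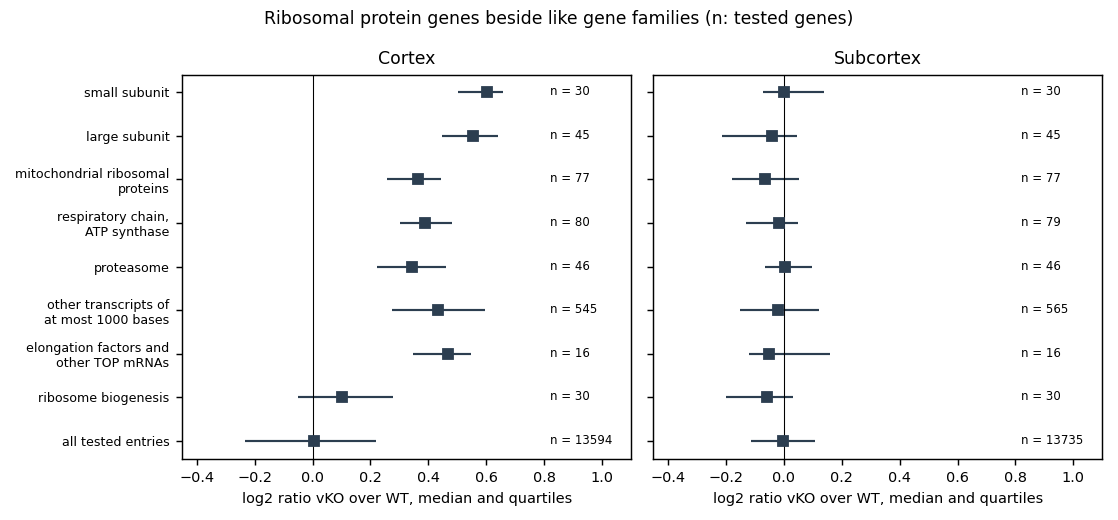
Median (square) and quartiles (line) of log2((vKO + 1)/(WT + 1)) over the tested genes of each family or list, in cortex and subcortex. In cortex the medians are 0.60 and 0.55 for the small and large subunit, 0.36 for mitochondrial ribosomal proteins, 0.39 for the respiratory chain and 0.34 for the proteasome, and in subcortex all shown lie near 0. The medians shown are not adjusted for transcript length, which differs between the sets.

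Of 8 ribosomal proteins that the symbol rule leaves out, 6 rose and none fell in cortex, with a median of 0.55. Fau, which encodes the small subunit protein eS30 fused to a ubiquitin-like domain, rose from 291 to 665 FPKM (1.19). Rpsa, a small subunit protein, rose from 257 to 419 (0.70). None was called in subcortex, where Fau was at 591 and 689.

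Other TOP mRNAs also rose in part: of 16 in the list, 8 rose and 1 fell in cortex, with a median of 0.47. Their median transcript length was 2226.5 bases. With the running median by length taken off, their median was 0.34, against 0.21 for the members. Eef1b2, an exchange factor of elongation, rose from 108 to 187 (0.79), Eif3h, an initiation subunit, from 109 to 169 (0.63), and Npm1, a nucleolar chaperone, from 165 to 246. Pabpc1, the poly(A)-binding protein, fell from 90.4 to 67.0. In subcortex none was called, with Eef1a1 at 3022 and 2953 FPKM.

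The proteins that build ribosomes and start translation were looked at next. Of 30 genes of ribosome biogenesis and RNA polymerase I, 3 rose and none fell in cortex, with a median of 0.10: Nip7 rose from 12.5 to 18.3, Polr1d from 38.8 to 57.2 and Pes1 from 17.7 to 23.7. Of 14 initiation factors Eif2s2 rose from 38.1 to 55.1 and Eif4g3 fell from 34.1 to 21.0, with a median of 0.16. Of 7 snoRNA host genes found, Snhg6 (67.7 to 105) and Snhg3 (10.1 to 17.8) rose, with a median of 0.51. In subcortex Fbl, the methyltransferase of ribosomal RNA, fell from 31.1 to 18.3 (q of 0.0104, the authors' deposited table), and no other gene of these lists was called.

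Among 18 regulators of TOR and Myc, 3 rose and 6 fell in cortex, with a median of -0.09. Their median transcript length was 4220.5 bases. Of other genes beyond 4000 bases, 25.3% were called lower and 1.39% higher in cortex, with a median of -0.20. What part length has in the falls of this list was not tested. Ddit4, an inhibitor of TOR complex 1 that is induced by stress, rose from 25.4 to 49.6 (0.94). Of the repressors of cap-dependent initiation, Eif4ebp2 fell from 14.997 to 8.73 (-0.72) and Eif4ebp1 rose from 2.66 to 5.97 (0.93). The kinase Mtor fell by 0.54 and its partner Rptor by 0.53 on the log2 scale, and Akt1s1, an inhibitor of the complex, rose from 19.4 to 27.7. Larp1, which binds TOP mRNAs, fell from 21.3 to 13.5 (-0.62). Tsc1 fell as well, from 15.5 to 11.1 (-0.45), and so did Rictor, from 15.3 to 11.7 (-0.36). Among 9 genes of the p53 pathway, Trp53 included, 2 rose and 1 fell: Ccng1 rose from 14.7 to 23.2, Bax from 49.6 to 70.8, and Zmat3 fell from 5.97 to 2.53. None of either list was called in subcortex.

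The 4 X-linked members (Rpl10, Rpl36a, Rpl39 and Rps4x) all rose in cortex, with a median of 0.62. Of 453 other tested X-linked entries 36 rose and 67 fell, with a median of -0.02. Without the X-linked members the median of the rest was 0.57.

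Markers of some other cell types also moved in cortex. The summed FPKM of 8 erythroid markers was 75.03 in WT and 1273 in vKO cortex (2 of 6 tested rose), and 115 and 189 in subcortex, where none rose. Much of that cortex sum was Hba-a2, at 14.2 and 613 without a call, and Hbb-b2, which rose from 54.5 to 569. The sum of 10 microglial markers was 57.0 and 131 in cortex (7 rose) and 89.6 and 103 in subcortex. For 8 markers of dividing cells and intermediate progenitors it was 114 and 162 in cortex (6 rose) and 92.8 and 92.4 in subcortex. Endothelial markers summed to 111 and 80.4 in cortex (1 of 10 rose, 4 fell) and to 87.9 and 104 in subcortex (3 rose). Astroglial markers summed to 902 and 1215 in cortex (2 of 4 rose), mostly Fabp7 at 723 and 965. In subcortex they summed to 1841.5 and 1666, and none was called. Markers of excitatory cortical neurons went both ways in cortex (1 of 7 rose, 2 fell), with sums of 303 and 323. Their median ratio was -0.30, with 5 of 7 ratios below 0, while Neurod6, the largest of them, rose from 98.3 to 168. None of 4 oligodendrocyte lineage markers (49.0 and 51.1) or 3 tested choroid plexus markers was called in cortex. No marker with an entry was listed at 0. Markers of subcortical regions summed to 34.4 and 27.1 in cortex (2 of 5 tested fell). The part of these cells and regions in the values of the ribosomal protein genes was not tested.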

How the data were processed

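RNA was sequenced from 12 libraries in 4 groups, per the labels. HISAT2 2.0.1, Cuffdiff, Cufflinks 2.2.1 and the build mm10 are named, without roles, per the submitters' processing notes. FPKM values, 1 per group of 3 libraries, were deposited by the authors with their own p-values and q-values, per the file headers; depth per library is unknown. Columns lettered W and M were read as WT and vKO. The deposited log2 column held error text and was recomputed with a pseudocount of 1 (0.1 and 5 as alternatives). The authors' q-values adjust their p-values over all tested entries, and no test of replicates was possible, so none was run. The log2 ratios were computed from the deposited values with python 3.11.15, pandas 2.3.3, scipy 1.17.1 and numpy 2.4.6. Transcript lengths came from GENCODE M21 (GRCm38, the same assembly as mm10) and copies from blastn 2.17.0 among its transcripts. The running median was tested on simulated data. There the members were drawn at random over all lengths, so that test says little of the short end, where many real members lie. Members and lists were chosen with earlier results of these data known. Named genes are, in each tissue, the 8 largest rises and falls among called members, the 5 most abundant members in WT cortex, untested members, paralogues beside their main forms, and up to 3 called genes per list. Single values of a few genes that this rule names are not reported here, and they stay in the counts and medians.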

Additional observations from a re-analysis of the deposited data

How the results depend on the processing

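No paired analysis was possible because each group has 1 deposited value, and leaving out replicates could not be run for the same reason. Over 76 alternatives, 65 values stayed close (within 0.1 on the log2 scale, or within 1.5 times for counts) and none changed to the opposite call. The tolerance of 0.1 is wider than several of the results themselves. These are the small minus large differences (0.05 and 0.04), the subcortex median (-0.02) and the subcortex distance to other short transcripts (-0.004). For these, staying close says little, and the subcortex median and the subcortex distance to other short transcripts changed sign within the tolerance. The cortex distance of 0.14 to other short transcripts also counted as close at 0.046, with both sets held to at most 600 bases. The count of 64 risen members in cortex became 32 with a 1.5-fold minimum as well and 35 among members with at most 5 near-identical copies, an alternative chosen after seeing the data and with fewer genes. In subcortex the 2 called members became 0 at q under 0.01, where no entry of the whole table passes, and 0 among members with at most 5 copies, whose median was 0.02. The cortex median of 0.57 became 0.21 after removal of the running median by length, by either measure of length. The distance of 0.14 between members and other short transcripts became 0.31 with untested entries kept, 0.032 with other transcripts of at most 600 bases and 0.31 with proteins of at most 250 residues. Holding members to the same length of 1000 or 600 bases (0.16 and 0.046), like the length by full coding sequence, was chosen after seeing the data. The summed ratio became 0.37 in cortex and 0.12 in subcortex after rescaling each group to the same total. The cause of these moves was not tested. Near-identical copies, joint entries and wide deposited loci limit single-gene values, and no depth per library was used.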
